A study of Mus musculus with 9 samples.

Results

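The genes of the Wnt pathway described here are 50 mouse genes taken by symbol from a list of ligands, receptors and modulators. The list uses gene symbols and no threshold on measured values, but it was drawn up when earlier results of these data were known. They are 50 of the 55704 genes in the expression table, of which 20207 were expressed highly enough to be tested and 41 of these were members. The cells were neural stem cells (NSCs) isolated from the subventricular zone (SVZ) of C57BL/6 mice aged 8 to 9 weeks, with 2 female and 2 male mice pooled for an isolation, and carried through several passages in suspension with bFGF and EGF at 20 ng/mL each. Cells plated for 16 to 18 h in bFGF/EGF and collected at day 0 were the bFGF/EGF group. In the other groups the medium was exchanged for 6 days, with BMP4 (20 ng/mL) taking the place of EGF in the bFGF/BMP4 group and of both growth factors in the BMP4 group. Each group had 3 libraries, described as biological replicas, and whether they came from separate isolations is not stated, so the p-values measure the spread between these cultures. Because the bFGF/EGF group was collected before the 6 days in the new media, the medium and the time in culture cannot be told apart in comparisons with it.

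Wnt proteins are secreted lipid-modified ligands that bind Frizzled receptors together with the co-receptors Lrp5 and Lrp6, or with Ror and Ryk receptors. In the canonical branch, binding halts a destruction complex built on Axin and Apc, so that β-catenin accumulates and acts on genes through TCF/LEF factors. In the non-canonical branches, Wnt5a and its relatives act on cell polarity and movement. In the adult SVZ, Wnt signalling is known as a regulator of both proliferation and quiescence of NSCs, and BMP ligands are known to hold NSCs out of the cell cycle.

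All 7 classical NSC markers were at 1 FPKM or more in all 9 libraries, with a summed level of 1706 to 1814 FPKM in bFGF/EGF, 682 to 783 FPKM in bFGF/BMP4 and 1498 to 1939 FPKM in BMP4. The libraries held 15902878 to 17438707 fragments on genes, and their correlation over genes was 0.950 to 0.964 within a group and 0.810 to 0.915 between groups. That sum is carried by Vim and Fabp7, and Nes, which encodes nestin, differed far more, at 151 ± 6.4, 3.55 ± 0.52 and 15.8 ± 5.0 FPKM in the same order. Summed mature astrocyte markers were at 178 to 243 FPKM in bFGF/EGF, 675 to 772 FPKM in bFGF/BMP4 and 3691 to 4573 FPKM in BMP4. The largest part of the BMP4 sum was Gfap, at 0.0926 ± 0.038, 19.4 ± 2.4 and 2566 ± 435 FPKM in the same order. Aqp4, Gja1 and Aldoc were also highest in BMP4. Slc1a2 (12.6 ± 2.2, 175 ± 18 and 65.5 ± 12 FPKM), S100b and Gjb6 had their highest means in bFGF/BMP4. Aldh1l1 was highest in bFGF/EGF, at 135 ± 25, 24.2 ± 0.61 and 58.1 ± 6.7 FPKM. Neuron and neuroblast markers stood at 81.5 to 97.6, 56.5 to 62.7 and 160 to 235 FPKM, and ependymal markers at 8.06 to 12.5, 10.4 to 11.4 and 58.2 to 70.5 FPKM, in the same order of groups. The ependymal sum was mostly Foxj1 (8.26 ± 2.3, 10.0 ± 0.50 and 55.1 ± 5.3 FPKM). Ccdc153, Rarres2 and Dynlrb2 were also highest in BMP4, at no more than 5.05 FPKM in mean. Hydin and Ak7 had group means of at most 0.0863 FPKM, and Tmem212 had no more than 3 fragments in every library. The high neuronal sum in BMP4 came mostly from Tubb3 (20.3 ± 4.0, 17.0 ± 3.3 and 145 ± 40 FPKM). Map2 (56.2 ± 11, 30.5 ± 2.2 and 34.1 ± 5.3 FPKM), Syt1 (3.83 ± 0.44, 0.137 ± 0.080 and 0.371 ± 0.22 FPKM), Rbfox3 (0.989 ± 0.34, 1.57 ± 0.24 and 0.522 ± 0.20 FPKM) and Gad1 had lower means in BMP4 than in bFGF/EGF. Dlx2 (1.98 ± 0.11, 7.53 ± 1.8 and 18.8 ± 3.2 FPKM), Snap25 (2.60 ± 1.3, 1.20 ± 0.50 and 4.38 ± 1.3 FPKM), Dcx (0.187 ± 0.067, 0.116 ± 0.0082 and 0.904 ± 0.94 FPKM) and Stmn2 had their highest means in BMP4. Oligodendrocyte lineage markers ran the other way, at 479 to 699, 244 to 360 and 83.4 to 102 FPKM, with Mog and Mag at no more than 3 fragments in every library. Vascular markers reached at most 5.66 FPKM in sum and microglia markers at most 12.2 FPKM, with Cldn5, Cdh5, Aif1, Csf1r and C1qa at no more than 3 fragments in every library. These marker levels move with the media as the Wnt genes do, and their part in the results was not tested. In bulk RNA, fewer cells that express a gene and less RNA of that gene per cell cannot be told apart.

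The stretches directly before the annotated starts of Fzd1, Fzd4, Notum and Wif1 are printed 5′ to 3′ on the strand of the gene, to show what such a match looks like. Fzd1 and Fzd4 carry GGCGCC, a GC-rich element that SMAD proteins of the BMP pathway can bind, and Notum carries CTTTGAT, a TCF/LEF element. Wif1 is shown because it had the largest difference of all members. Capitals mark the matches, which begin at positions -15, -164 and -53 from the start of Fzd1, Fzd4 and Notum. Sequences are from the GRCm39 genome and starts are those of the canonical transcripts in GENCODE vM39.
Fzd1: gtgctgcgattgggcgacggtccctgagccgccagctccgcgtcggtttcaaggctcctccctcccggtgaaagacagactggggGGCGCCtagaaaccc
Fzd4: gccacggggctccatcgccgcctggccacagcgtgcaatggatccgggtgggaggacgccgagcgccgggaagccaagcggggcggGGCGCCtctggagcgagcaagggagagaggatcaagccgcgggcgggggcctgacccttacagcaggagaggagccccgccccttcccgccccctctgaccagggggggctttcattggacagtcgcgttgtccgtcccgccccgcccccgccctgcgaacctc
Notum: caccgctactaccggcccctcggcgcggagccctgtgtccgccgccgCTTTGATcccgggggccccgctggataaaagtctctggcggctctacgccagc
Wif1: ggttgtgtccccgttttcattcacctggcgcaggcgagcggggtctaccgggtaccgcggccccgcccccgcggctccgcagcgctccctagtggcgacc
The windows lie in GRCm39 at chr5:4808036-4808135 for Fzd1 (minus strand), chr7:89053313-89053562 for Fzd4 (plus strand), chr11:120552020-120552119 for Notum (minus strand) and chr10:120869765-120869864 for Wif1 (plus strand). In windows of 250 bases before to 50 bases after the start, searched on both strands, CTTTGAT was present in 3 of the 50 members (Lrp6, Notum and Nkd1) and in 3.38% of 21627 protein-coding genes. GGCGCC, which reads the same on both strands, was present in 10 of the 50 members and in 12.4% of those genes. Beside Fzd1 and Fzd4 these were Fzd10, Lrp5, Ror2, Axin1, Gsk3b, Rspo3, Lef1 and Tcf7l2, which include genes higher, lower and not past the threshold in the BMP4-containing media. The matches are descriptions of the letters, and the absence of both from the Wif1 window concerns that window only.

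The Wnt genes differed widely between the 3 media, in both directions. Among the 41 tested members, 13 were higher and 10 lower in bFGF/BMP4 than in bFGF/EGF, against 16.5% higher and 14.1% lower (30.6% in all) of the 20207 genes tested. Between BMP4 and bFGF/EGF, 17 members were higher and 7 lower in BMP4, against a background of 21.3% higher and 15.4% lower (36.6% in all). Between BMP4 and bFGF/BMP4, 8 members were higher and 5 lower in BMP4, against 8.41% higher and 5.14% lower (13.5% in all). The median log2 difference of the tested members was 0.36, 0.58 and 0.03 in these comparisons, and that of all tested genes was 0.06, 0.10 and 0.00. The member medians were the same with Wif1 and Sfrp5 set at the bounds given with their values. Members that were tested include genes that reached the level needed for testing only in the group where they were high. The first 2 comparisons share the bFGF/EGF libraries and each pair of comparisons shares a group, so their counts are not independent.

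**Figure D1:**
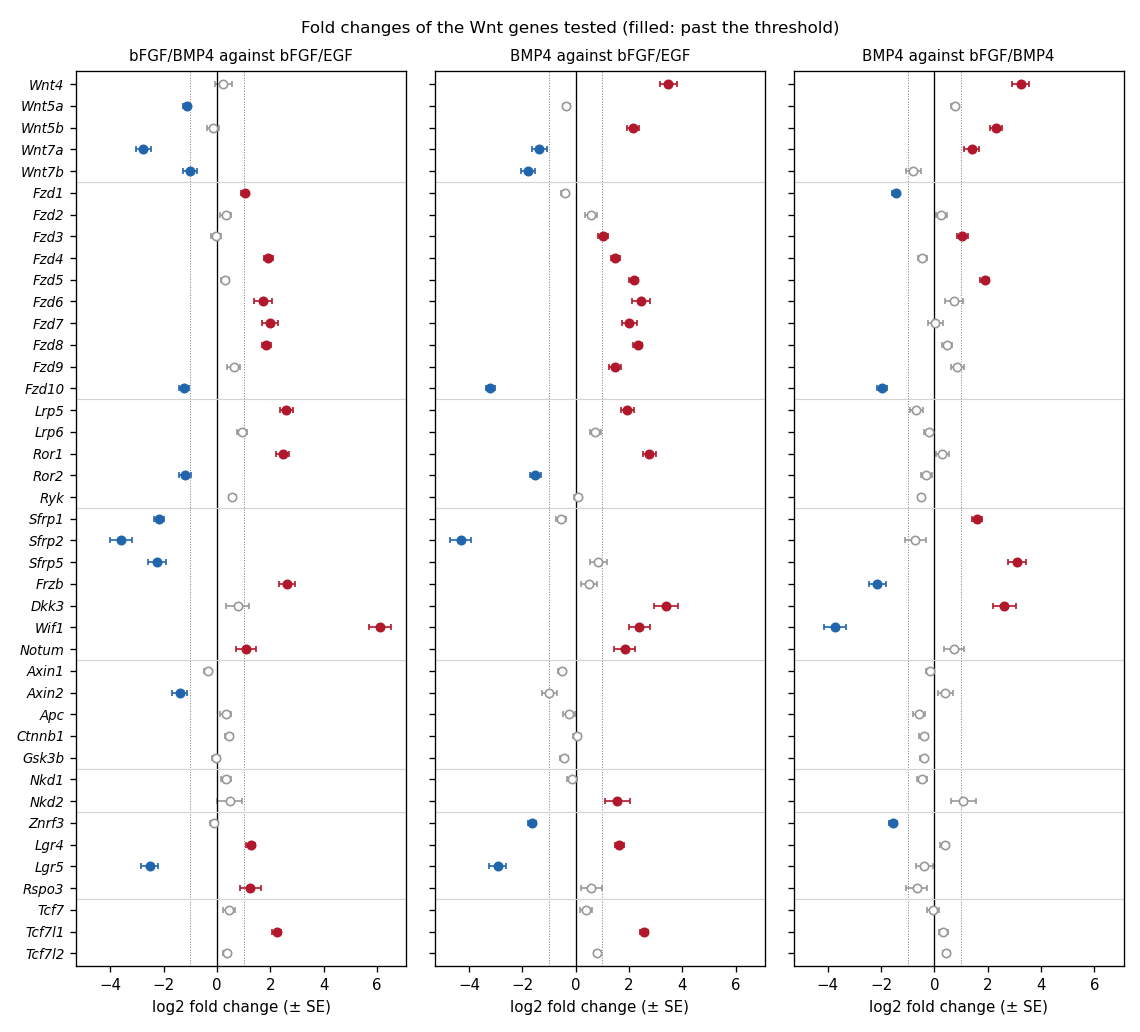
Log2 differences with standard errors (horizontal axis, log2(FPKM + 0.1) scale) of the 41 tested members (rows) in the 3 comparisons (panels), with filled symbols for differences past the threshold, red for higher and blue for lower, and dotted lines at a 2-fold change. Filled symbols stand for 13 higher and 10 lower members in bFGF/BMP4 against bFGF/EGF, 17 and 7 in BMP4 against bFGF/EGF, and 8 and 5 in BMP4 against bFGF/BMP4, and the fitted positions of low genes such as Wif1, Sfrp5, Lgr5 and Notum depend on the pseudocount.

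In all, 31 members passed the threshold in at least 1 comparison. Among them, 9 (Fzd4, Fzd6, Fzd7, Fzd8, Lrp5, Ror1, Notum, Lgr4 and Tcf7l1) were lower in bFGF/EGF than in both other groups. A further 4 (Wnt7b, Ror2, Sfrp2 and Lgr5) were highest in bFGF/EGF. Another 5 (Wnt4, Wnt5b, Fzd3, Fzd5 and Dkk3) were higher in BMP4 than in both other groups, and 2 (Fzd10 and Znrf3) were lowest there. Also, 3 (Fzd1, Frzb and Wif1) were highest in bFGF/BMP4 and 3 (Wnt7a, Sfrp1 and Sfrp5) were lowest in it. The other 5 (Wnt5a, Fzd9, Axin2, Nkd2 and Rspo3) passed in a single comparison. How many of all tested genes passed in at least 1 comparison, or had each of these patterns, was not counted. The 31 and the pattern counts therefore describe the members alone. In the following, a log2 difference is the limma estimate ± SE on the log2(FPKM + 0.1) scale over 3 against 3 libraries, levels are FPKM in replicates 1, 2 and 3, and means carry the SD of 3 libraries. Adding 0.1 FPKM shrinks the differences of low genes, and with a pseudocount of 1 in its place 15 calls did not pass. Against bFGF/EGF these were Fzd6, Ror1, Ror2, Rspo3, Sfrp5 and Wnt7b in bFGF/BMP4, Fzd3, Nkd2 and Wif1 in BMP4, and Lgr5 and Notum in both, and between BMP4 and bFGF/BMP4 they were Sfrp1 and Sfrp5.

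Of the 7 ligand genes, 5 were tested, and none of them was higher in bFGF/BMP4 than in bFGF/EGF while 3 were lower. In BMP4 against bFGF/EGF, 2 were higher and 2 lower, and in BMP4 against bFGF/BMP4, 3 were higher and none lower. Over all tested genes, 30.6%, 36.6% and 13.5% passed in these comparisons. The same shares stand beside the counts by role below, each of which covers few genes. The median log2 difference of the ligands was -1.01, -0.36 and 1.40 in the 3 comparisons. The summed level of the 7 ligands was 60.1 ± 14 FPKM in bFGF/EGF, 20.9 ± 2.0 FPKM in bFGF/BMP4 and 31.1 ± 3.1 FPKM in BMP4, with no overlap of the 3 groups. This sum and the shares of it leave out Wnt9a, a ligand that is not among the members and was at 14.1 ± 1.1 FPKM in BMP4, above each of the 7, against 0.290 ± 0.18 FPKM in bFGF/EGF and 0.773 ± 0.25 FPKM in bFGF/BMP4.

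Wnt7a and Wnt7b, closely related ligands of the canonical branch that are strongly expressed in neural tissue, made up most of this sum in bFGF/EGF, with 40.7 ± 3.1% and 36.4 ± 1.9% of the sum. Wnt7a (chr6:91340959-91388460 in GRCm39) was at 26.5, 30.1 and 17.3 FPKM in bFGF/EGF, 4.34, 2.34 and 3.96 FPKM in bFGF/BMP4, and 8.10, 8.00 and 12 FPKM in BMP4. All 3 groups of Wnt7a stood apart, with bFGF/BMP4 at the bottom. Its log2 difference was -2.77 ± 0.28 in bFGF/BMP4 (adjusted p = 2.8e-05) and -1.37 ± 0.28 in BMP4 (adjusted p = 0.002) against bFGF/EGF, and 1.40 ± 0.28 in BMP4 against bFGF/BMP4 (adjusted p = 0.0051). Wnt7b was at 20.8, 28.3 and 16.8 FPKM in bFGF/EGF, 8.07, 13.1 and 11.2 FPKM in bFGF/BMP4, and 4.21, 7.20 and 7.44 FPKM in BMP4. The BMP4 libraries of Wnt7b lay below those of bFGF/BMP4, but this difference, -0.79 ± 0.27, did not pass (adjusted p = 0.067). Its log2 difference from bFGF/EGF was -1.01 ± 0.27 in bFGF/BMP4 (adjusted p = 0.011) and -1.80 ± 0.27 in BMP4 (adjusted p = 2.9e-04). The first of these did not pass without bFGF/EGF replicate 2 or without bFGF/BMP4 replicate 1, with log2 differences of -0.82 to -1.19 over all omissions of a library. The share of Wnt7b in the ligand sum was 51.1 ± 7.5% in bFGF/BMP4 and 20.0 ± 4.2% in BMP4, and that of Wnt7a was 17.3 ± 6.5% and 30.0 ± 5.0%.

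Wnt5a, the best-known ligand of the non-canonical branch, was at 12.2, 14.4 and 11.2 FPKM in bFGF/EGF, 5.30, 6.45 and 5.34 FPKM in bFGF/BMP4, and 9.96, 9.51 and 9.61 FPKM in BMP4. The groups did not overlap, and bFGF/BMP4 was lowest. The gene passed the threshold only in bFGF/BMP4 against bFGF/EGF, at -1.13 ± 0.13 (adjusted p = 7.0e-05), and its difference between BMP4 and bFGF/BMP4 was 0.76 ± 0.13 (adjusted p = 0.0022), under 2-fold. Wnt5b, its close relative, was at 0.776, 1.10 and 0.661 FPKM in bFGF/EGF, 0.821, 0.589 and 0.794 FPKM in bFGF/BMP4, and 3.76, 4.61 and 3.77 FPKM in BMP4. Only the BMP4 libraries stood apart, with log2 differences of 2.15 ± 0.23 from bFGF/EGF (adjusted p = 2.9e-05) and 2.32 ± 0.23 from bFGF/BMP4 (adjusted p = 7.9e-05). Wnt5b shares 1244 exonic bases with Fbxl14 on the opposite strand, a gene at 14.9 FPKM, and without strand the reads of that stretch cannot be told apart. Wnt4, a ligand with roles in organ development, was near the limit of detection in bFGF/EGF at 0.0701, 0.0603 and 0.0405 FPKM and in bFGF/BMP4 at 0.119, 0.0932 and 0.0486 FPKM. In BMP4 it was at 1.82, 1.97 and 1.21 FPKM, above every other library. The log2 difference was 3.47 ± 0.32 from bFGF/EGF (adjusted p = 1.1e-05) and 3.23 ± 0.32 from bFGF/BMP4 (adjusted p = 8.4e-05). Wnt5b and Wnt4 thus made up 13.1 ± 1.8% and 5.46 ± 1.6% of the ligand sum in BMP4, against 1.40 ± 0.10% and 0.0952 ± 0.018% in bFGF/EGF. The ligands Wnt3 and Wnt8b were not tested, with highest group means of 0.0758 and 0.0369 FPKM.

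**Figure D2:**
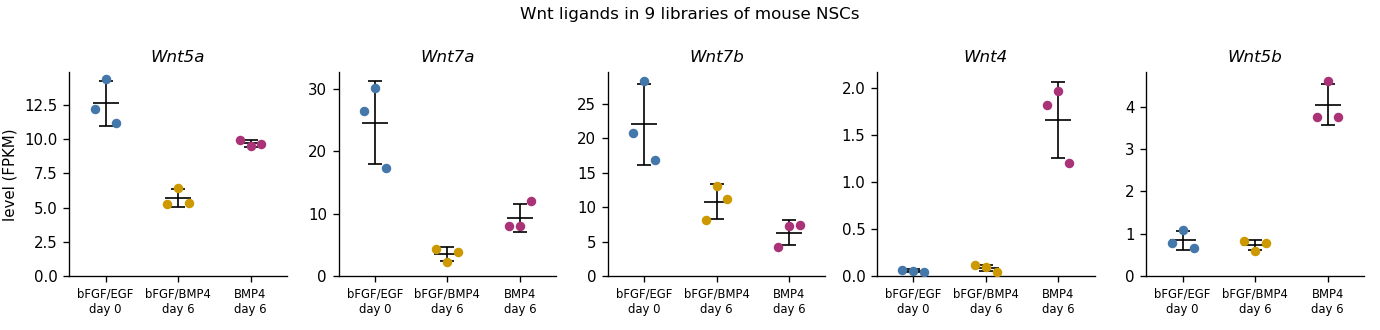
FPKM (vertical axes, from 0) of Wnt5a, Wnt7a, Wnt7b, Wnt4 and Wnt5b in each library (points) by medium, with the mean and SD of 3 libraries (bars). Wnt7a lies between 17.3 and 30.1 in bFGF/EGF and at no more than 12 elsewhere, while Wnt4 and Wnt5b lie above 1 FPKM and 3 FPKM in all BMP4 libraries.

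The 10 Frizzled genes encode the main Wnt receptors, and all were tested. In bFGF/BMP4 against bFGF/EGF, 5 were higher and 1 lower, in BMP4 against bFGF/EGF 7 were higher and 1 lower, and between the 2 BMP4-containing media 2 were higher and 2 lower in BMP4. Their median log2 difference was 0.83, 1.47 and 0.36. The summed Frizzled level was 82.2 ± 4.1 FPKM in bFGF/EGF, 137 ± 17 FPKM in bFGF/BMP4 and 124 ± 11 FPKM in BMP4, so that both BMP4-containing media were above bFGF/EGF in every library and overlapped each other. The make-up of this sum differed between them.

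Fzd1 was the most abundant Frizzled gene in bFGF/EGF and bFGF/BMP4 by FPKM, with 41.5 ± 2.1% and 51.5 ± 3.8% of the sum, while in BMP4 its 20.7 ± 2.0% and the 26.4 ± 3.8% of Fzd3 overlapped. It was at 33.7, 35.7 and 32.9 FPKM in bFGF/EGF, 55.5, 76.5 and 81.2 FPKM in bFGF/BMP4, and 24.8, 25.2 and 26.4 FPKM in BMP4. The bFGF/BMP4 libraries were highest and the BMP4 libraries lowest, with no overlap. Its log2 difference was 1.04 ± 0.14 in bFGF/BMP4 against bFGF/EGF (adjusted p = 2.0e-04) and -1.46 ± 0.14 in BMP4 against bFGF/BMP4 (adjusted p = 7.1e-05). The first of these lies close to the 2-fold limit and fell short of it without bFGF/BMP4 replicate 2 or replicate 3 (range 0.93 to 1.21 over all omissions of a library) and with limma-voom. Fzd3, a Frizzled best known from axon guidance and planar polarity, was at 17.9, 12.7 and 17.8 FPKM in bFGF/EGF, 14.4, 16.2 and 16.2 FPKM in bFGF/BMP4, and 37.3, 24.6 and 36.9 FPKM in BMP4. Every BMP4 library was above all others, and the log2 difference was 1.02 ± 0.19 from bFGF/EGF (adjusted p = 0.0011) and 1.05 ± 0.19 from bFGF/BMP4 (adjusted p = 0.0028). Both lay at the 2-fold limit and fell short of it on the TPM scale and without BMP4 replicate 1 or replicate 3, with ranges of 0.85 to 1.21 and 0.95 to 1.24 over the omissions. The first also fell short without bFGF/EGF replicate 2, with median-ratio scaling, with limma-voom and with a pseudocount of 1 (0.98), and the second without bFGF/BMP4 replicate 1.

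Fzd5, a receptor of the canonical branch, was high in BMP4 alone. Its levels were 3.31, 4.06 and 3.05 FPKM in bFGF/EGF, 4.73, 4.62 and 3.52 FPKM in bFGF/BMP4, and 18.1, 14.6 and 15.3 FPKM in BMP4. The first 2 groups overlapped, and BMP4 differed from them by 2.17 ± 0.16 (adjusted p = 3.0e-06) and 1.88 ± 0.16 (adjusted p = 3.8e-05). Fzd10 (chr5:128677908-128681157) went the other way in steps, from 15.1, 14.0 and 10.7 FPKM in bFGF/EGF to 4.71, 5.82 and 6.15 FPKM in bFGF/BMP4 and 1.57, 1.31 and 1.18 FPKM in BMP4. No groups overlapped, and all comparisons passed, at -1.24 ± 0.18 for bFGF/BMP4 against bFGF/EGF (adjusted p = 2.9e-04), -3.20 ± 0.18 for BMP4 against bFGF/EGF (adjusted p = 4.7e-07) and -1.96 ± 0.18 for BMP4 against bFGF/BMP4 (adjusted p = 4.7e-05). The share of Fzd10 in the Frizzled sum was 16.1 ± 2.0%, 4.05 ± 0.052% and 1.09 ± 0.15%, and that of Fzd5 was 4.22 ± 0.60%, 3.19 ± 0.83% and 12.9 ± 0.82%. Fzd10 shares 995 exonic bases with the opposite-strand transcript Fzd10os, which was at 1.24 FPKM.

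The Frizzled genes Fzd4, Fzd8, Fzd7 and Fzd6 were higher in both BMP4-containing media and did not pass between them. Fzd4, also known as a receptor of the non-Wnt ligand norrin, was at 1.98, 1.77 and 1.51 FPKM in bFGF/EGF, 5.51, 7.53 and 7.96 FPKM in bFGF/BMP4, and 5.11, 5.22 and 4.78 FPKM in BMP4. The bFGF/EGF libraries lay below all others, with log2 differences of 1.93 ± 0.17 for bFGF/BMP4 (adjusted p = 1.3e-05) and 1.48 ± 0.17 for BMP4 (adjusted p = 5.0e-05). Fzd8 was at 2.06, 2.54 and 1.64 FPKM in bFGF/EGF, 8.95, 8.00 and 6.18 FPKM in bFGF/BMP4, and 11.1, 10.4 and 10.3 FPKM in BMP4. Here the highest group was BMP4, at 2.32 ± 0.18 over bFGF/EGF (adjusted p = 4.0e-06), with bFGF/BMP4 at 1.85 ± 0.18 (adjusted p = 2.6e-05). Fzd7, a Frizzled associated with stem cells in several tissues, was at 3.22, 3.50 and 2.37 FPKM in bFGF/EGF, 7.18, 14.0 and 17.7 FPKM in bFGF/BMP4, and 14.4, 11.0 and 12 FPKM in BMP4. The bFGF/BMP4 libraries of Fzd7 spread over those of BMP4, and the difference between these groups was 0.03 ± 0.29 (adjusted p = 0.96). Against bFGF/EGF the log2 differences of Fzd7 were 1.98 ± 0.29 in bFGF/BMP4 (adjusted p = 3.5e-04) and 2.01 ± 0.29 in BMP4 (adjusted p = 2.4e-04). Fzd6, a member of the planar polarity branch, was at 0.513, 0.262 and 0.258 FPKM in bFGF/EGF, 1.10, 2.02 and 1.00 FPKM in bFGF/BMP4, and 2.40, 2.86 and 1.66 FPKM in BMP4. It was lowest in bFGF/EGF without overlap, with log2 differences of 1.71 ± 0.34 in bFGF/BMP4 (adjusted p = 0.0021) and 2.45 ± 0.34 in BMP4 (adjusted p = 1.7e-04).

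Fzd9 was at 4.31, 3.94 and 5.13 FPKM in bFGF/EGF, 10.2, 4.86 and 6.52 FPKM in bFGF/BMP4, and 12.9, 11.0 and 13.6 FPKM in BMP4. The bFGF/BMP4 libraries overlapped those of bFGF/EGF, and Fzd9 passed only between BMP4 and bFGF/EGF, at 1.47 ± 0.24 (adjusted p = 4.8e-04). Fzd2 passed in no comparison and had means of 3.56 ± 0.92, 4.45 ± 1.0 and 5.26 ± 0.23 FPKM.

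**Figure D3:**
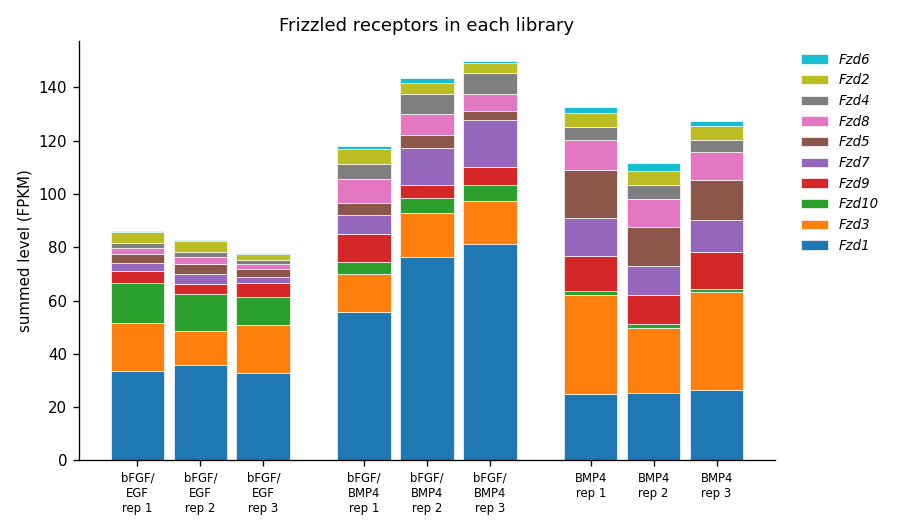
Stacked FPKM (vertical axis) of the 10 Frizzled genes (colours) in each of the 9 libraries (horizontal axis, by medium). The stacks sum to 77.9 to 86.1 in bFGF/EGF, 118 to 150 in bFGF/BMP4 and 112 to 133 in BMP4, with Fzd1 taking the largest part in bFGF/BMP4 and Fzd3 and Fzd5 taking larger parts in BMP4.

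Among the 5 co-receptors, 2 were higher and 1 lower in each comparison with bFGF/EGF, and none passed between BMP4 and bFGF/BMP4. Lrp5, which pairs with Frizzled in the canonical branch, was at 3.45, 3.53 and 2.33 FPKM in bFGF/EGF, 12.9, 21.9 and 24.4 FPKM in bFGF/BMP4, and 11.9, 10.4 and 13.6 FPKM in BMP4. The bFGF/EGF libraries were lowest throughout, and the other groups overlapped. Its log2 difference was 2.60 ± 0.25 in bFGF/BMP4 (adjusted p = 1.9e-05) and 1.93 ± 0.25 in BMP4 (adjusted p = 1.0e-04). Lrp6, its paralog, was under the 2-fold limit in both comparisons, with means of 7.06 ± 1.3, 13.6 ± 2.4 and 11.8 ± 1.8 FPKM and log2 differences of 0.94 ± 0.19 (adjusted p = 0.0023) and 0.74 ± 0.19 (adjusted p = 0.0074).

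Ror1 and Ror2, receptor tyrosine kinases of the Wnt5a branch, moved in opposite directions. Ror1 was at 0.122, 0.0988 and 0.0884 FPKM in bFGF/EGF, 1.10, 1.02 and 0.956 FPKM in bFGF/BMP4, and 1.53, 1.05 and 1.29 FPKM in BMP4. Ror2 was at 5.12, 5.53 and 5.02 FPKM in bFGF/EGF, 1.85, 2.66 and 2.20 FPKM in bFGF/BMP4, and 2.29, 1.31 and 1.83 FPKM in BMP4. In both genes the bFGF/EGF libraries stood apart and the other groups overlapped. The log2 differences of Ror1 from bFGF/EGF were 2.47 ± 0.24 in bFGF/BMP4 (adjusted p = 2.5e-05) and 2.76 ± 0.24 in BMP4 (adjusted p = 8.0e-06), while those of Ror2 were -1.20 ± 0.21 (adjusted p = 0.0011) and -1.51 ± 0.21 (adjusted p = 2.0e-04). Ryk, an atypical Wnt receptor, passed in no comparison, with means of 24.1 ± 1.2, 36.1 ± 4.0 and 25.3 ± 2.8 FPKM.

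The secreted antagonists, which bind Wnt ligands or Lrp co-receptors or strip the lipid from Wnt, gave the largest differences of all members. In bFGF/BMP4 against bFGF/EGF, 3 of the 7 tested were higher and 3 lower, in BMP4 against bFGF/EGF 3 were higher and 1 lower, and in BMP4 against bFGF/BMP4 3 were higher and 2 lower. Their median log2 difference was 0.77, 0.85 and 0.74. Wif1 (chr10:120869865-120936555), a Wnt-binding inhibitor, was at 0, 0 and 0.0233 FPKM in bFGF/EGF, 7.54, 7.04 and 7.67 FPKM in bFGF/BMP4, and 1.02, 0.432 and 0.200 FPKM in BMP4. The 3 groups were far apart, and the bFGF/EGF libraries held no more than 3 fragments each. Against that floor, Wif1 was at least 101-fold higher in bFGF/BMP4 (adjusted p = 2.2e-06) and at least 7.46-fold higher in BMP4 (adjusted p = 7.4e-04). Between BMP4 and bFGF/BMP4 its log2 difference was -3.74 ± 0.41 (adjusted p = 1.6e-04). Frzb, also called secreted frizzled-related protein 3, was at 1.02, 1.33 and 1.05 FPKM in bFGF/EGF, 6.73, 7.77 and 8.00 FPKM in bFGF/BMP4, and 0.875, 2.14 and 2.21 FPKM in BMP4. Frzb was thus high in bFGF/BMP4 alone, at 2.63 ± 0.31 over bFGF/EGF (adjusted p = 7.0e-05), and BMP4 was at -2.14 ± 0.31 against bFGF/BMP4 (adjusted p = 7.3e-04).

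The other secreted frizzled-related proteins had their lows in bFGF/BMP4 or in both BMP4-containing media. Sfrp1 was at 3.65, 3.92 and 2.71 FPKM in bFGF/EGF, 0.626, 0.701 and 0.715 FPKM in bFGF/BMP4, and 2.47, 2.10 and 2.27 FPKM in BMP4. Its lowest group was bFGF/BMP4, at -2.16 ± 0.19 against bFGF/EGF (adjusted p = 1.1e-05), with BMP4 at 1.61 ± 0.19 over bFGF/BMP4 (adjusted p = 2.2e-04). Sfrp5 shared its lowest group with Sfrp1, with 0.619, 0.499 and 0.447 FPKM in bFGF/EGF, 0.0655, 0 and 0.0358 FPKM in bFGF/BMP4, and 1.39, 1.01 and 0.734 FPKM in BMP4. Its BMP4 libraries were the highest, but the difference from bFGF/EGF, 0.85 ± 0.33, did not pass (adjusted p = 0.054). Since the bFGF/BMP4 libraries held at most 3 fragments of Sfrp5, it was at least 5.07-fold higher in bFGF/EGF (adjusted p = 3.6e-04) and at least 10.2-fold higher in BMP4 (adjusted p = 1.4e-04) than in bFGF/BMP4. Sfrp2 (chr3:83673481-83681623) was high in bFGF/EGF alone, at 3.85, 3.82 and 2.71 FPKM, against 0.145, 0.182 and 0.253 FPKM in bFGF/BMP4 and 0.229, 0.0287 and 0.0282 FPKM in BMP4. The bFGF/EGF libraries lay above all others by a wide margin, and the log2 difference was -3.60 ± 0.40 in bFGF/BMP4 (adjusted p = 5.1e-05) and -4.32 ± 0.40 in BMP4 (adjusted p = 1.1e-05).

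Dkk3, a divergent member of the Dickkopf family, was at 0.158, 0.377 and 0.0674 FPKM in bFGF/EGF, 0.445, 0.563 and 0.182 FPKM in bFGF/BMP4, and 2.29, 3.64 and 2.56 FPKM in BMP4. The first 2 groups overlapped, and BMP4 was above them by 3.39 ± 0.44 (adjusted p = 1.2e-04) and 2.62 ± 0.44 (adjusted p = 0.002). Notum, the extracellular enzyme that removes the Wnt lipid, stayed below 1 FPKM, with means of 0.0923 ± 0.060, 0.296 ± 0.058 and 0.578 ± 0.20 FPKM. It passed against bFGF/EGF in BMP4 at 1.83 ± 0.38 (adjusted p = 0.0024) and in bFGF/BMP4 at 1.09 ± 0.38 (adjusted p = 0.038), and the latter call was lost on leaving out bFGF/EGF replicate 1 or 3, any of the bFGF/BMP4 libraries or BMP4 replicate 1, with values of 0.79 to 1.25, and also with no filter on low genes. The classical Dickkopf inhibitors Dkk1 and Dkk2 were not tested, with highest group means of 0.0593 and 0.00560 FPKM.

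**Figure D4:**
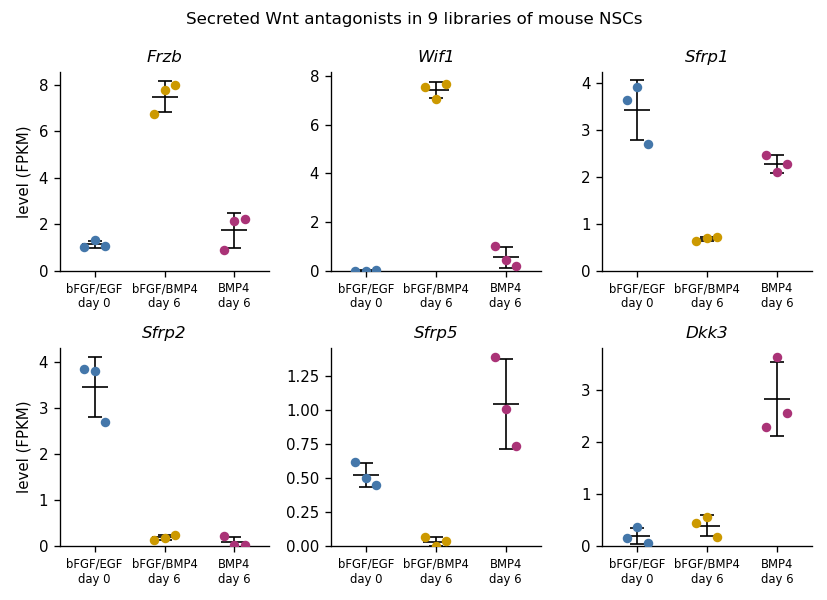
FPKM (vertical axes, from 0) of Frzb, Wif1, Sfrp1, Sfrp2, Sfrp5 and Dkk3 in each library (points) by medium, with the mean and SD of 3 libraries (bars). Wif1 at 7.04 to 7.67 and Frzb at 6.73 to 8.00 are high in bFGF/BMP4, where Sfrp1 and Sfrp5 are at their lowest, Sfrp2 is high only in bFGF/EGF and Dkk3 only in BMP4.

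Of the 5 genes for the destruction complex and β-catenin, 1 was lower in bFGF/BMP4 than in bFGF/EGF and none passed in the other comparisons. Ctnnb1, which encodes β-catenin, was the most abundant member by FPKM, with means of 159 ± 18, 219 ± 31 and 165 ± 18 FPKM, and passed in no comparison. The scaffold genes Axin1 (15.5 ± 1.5, 12.2 ± 1.1 and 10.8 ± 1.1 FPKM) and Apc (33.7 ± 8.1, 41.5 ± 3.7 and 28.0 ± 5.6 FPKM) and the kinase gene Gsk3b (26.3 ± 3.1, 25.6 ± 1.8 and 19.4 ± 3.0 FPKM) also passed in none. Axin2, a widely used target and feedback inhibitor of canonical signalling, was at 11.4, 9.65 and 5.80 FPKM in bFGF/EGF, 4.53, 2.53 and 2.88 FPKM in bFGF/BMP4, and 4.65, 3.55 and 4.70 FPKM in BMP4. Every bFGF/EGF library was above the others, and the other groups overlapped. The log2 difference from bFGF/EGF passed in bFGF/BMP4, at -1.39 ± 0.28 (adjusted p = 0.0022). In BMP4 it was -0.99 ± 0.28 (adjusted p = 0.012), just inside the 2-fold limit, and BMP4 differed from bFGF/BMP4 by 0.40 ± 0.28 (adjusted p = 0.38). Of the Naked genes, intracellular inhibitors that act on Dishevelled, Nkd1 passed in no comparison (13.8 ± 2.7, 17.4 ± 3.2 and 12.5 ± 1.7 FPKM). Nkd2 was at 0.402, 0.563 and 0.340 FPKM in bFGF/EGF, 0.310, 1.11 and 0.690 FPKM in bFGF/BMP4, and 1.75, 2.26 and 0.741 FPKM in BMP4. It was higher in BMP4 than in bFGF/EGF by 1.55 ± 0.47 (adjusted p = 0.018), a call lost without bFGF/EGF replicate 3 or BMP4 replicate 1 or 2, with a range of 1.24 to 1.99.

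R-spondins are ligands of Lgr receptors and protect Frizzled receptors from the ubiquitin ligases Znrf3 and Rnf43. Lgr4 was at 3.34, 3.35 and 2.77 FPKM in bFGF/EGF, 6.78, 9.75 and 6.87 FPKM in bFGF/BMP4, and 9.91, 11.3 and 9.00 FPKM in BMP4. It was lowest in bFGF/EGF, with log2 differences of 1.26 ± 0.17 in bFGF/BMP4 (adjusted p = 1.8e-04) and 1.64 ± 0.17 in BMP4 (adjusted p = 2.3e-05). Lgr5, a stem cell marker of epithelia and itself a Wnt target, had the opposite order at a low level, with means of 0.814 ± 0.15, 0.0573 ± 0.014 and 0.0199 ± 0.0068 FPKM and log2 differences of -2.53 ± 0.32 (adjusted p = 1.3e-04) and -2.92 ± 0.32 (adjusted p = 3.7e-05). At this level the pseudocount sets the size of the difference, and with a pseudocount of 1 both fell short of 2-fold, at -0.78 and -0.83. Znrf3 was at 7.35, 7.23 and 5.92 FPKM in bFGF/EGF, 6.05, 7.06 and 5.84 FPKM in bFGF/BMP4, and 2.27, 1.85 and 2.21 FPKM in BMP4. It was low in BMP4 alone, at -1.65 ± 0.15 against bFGF/EGF (adjusted p = 9.2e-06) and -1.54 ± 0.15 against bFGF/BMP4 (adjusted p = 6.9e-05). Rspo3 passed only between bFGF/BMP4 and bFGF/EGF, at 1.25 ± 0.40 (adjusted p = 0.025). Its means were 0.0312 ± 0.038 FPKM in bFGF/EGF, 0.209 ± 0.067 FPKM in bFGF/BMP4 and 0.0925 ± 0.030 FPKM in BMP4. The call was lost without bFGF/EGF replicate 1 or 2 (range 1.07 to 1.47), with the replicate block (adjusted p = 0.052) and with a pseudocount of 1 (0.23). Rnf43, Lgr6, Rspo1 and Rspo2 were not tested, with highest group means of 0.0709, 0.0509, 0.0506 and 0.0120 FPKM.

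Of the TCF/LEF factors, which carry the signal to the genome, only Tcf7l1 passed the threshold. This factor, also known as Tcf3, acts mainly as a repressor of Wnt target genes. It was at 2.73, 2.85 and 2.19 FPKM in bFGF/EGF, 10.6, 12.4 and 15.0 FPKM in bFGF/BMP4, and 15.0, 14.5 and 18.2 FPKM in BMP4. The bFGF/EGF libraries were far below all others, and the log2 difference was 2.24 ± 0.16 in bFGF/BMP4 (adjusted p = 3.8e-06) and 2.57 ± 0.16 in BMP4 (adjusted p = 1.1e-06). Its share of the summed TCF/LEF level was 35.2 ± 1.3% in bFGF/EGF against 66.4 ± 2.0% and 68.2 ± 1.8% in bFGF/BMP4 and BMP4. Tcf7l2 had means of 2.52 ± 0.10, 3.27 ± 0.23 and 4.47 ± 0.24 FPKM with no overlap of groups, but all its differences were under 2-fold. They were 0.36 ± 0.13 in bFGF/BMP4 (adjusted p = 0.042) and 0.80 ± 0.13 in BMP4 (adjusted p = 5.0e-04) against bFGF/EGF. Between BMP4 and bFGF/BMP4 the difference of Tcf7l2 was 0.44 ± 0.13 (adjusted p = 0.038). Tcf7 passed in no comparison (2.21 ± 0.55, 3.06 ± 0.71 and 2.89 ± 0.26 FPKM), and Lef1 was not tested, with a highest group mean of 0.0549 FPKM.

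**Figure D5:**
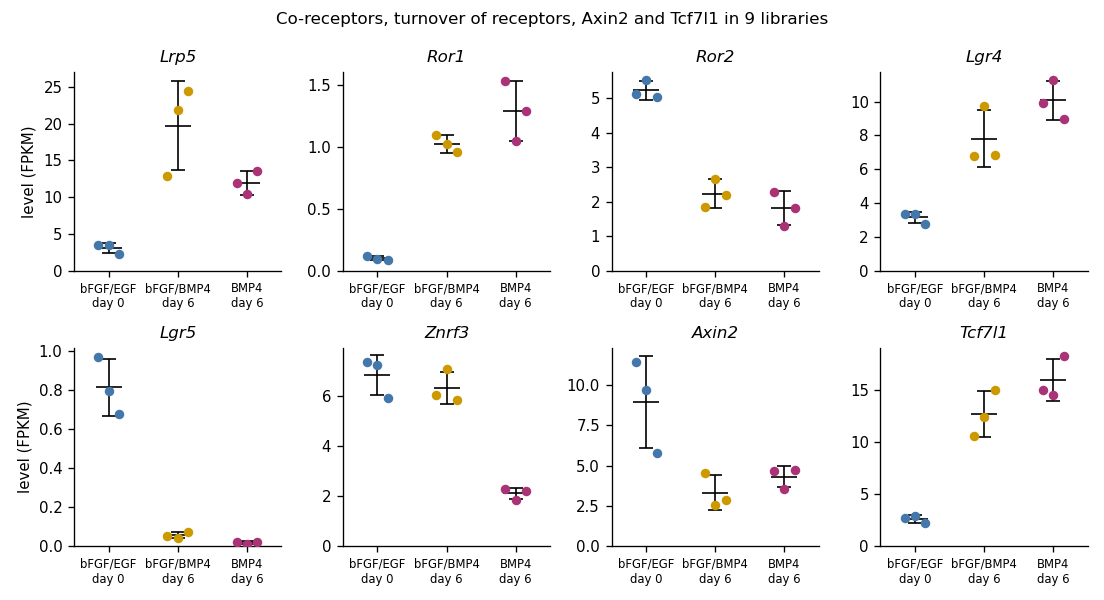
FPKM (vertical axes, from 0) of Lrp5, Ror1, Ror2, Lgr4, Lgr5, Znrf3, Axin2 and Tcf7l1 in each library (points) by medium, with the mean and SD of 3 libraries (bars). Tcf7l1 lies at 2.19 to 2.85 in bFGF/EGF and at 10.6 to 18.2 in the other media, and Znrf3 is low only in BMP4, at 1.85 to 2.27.

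The 10 tested members that passed in no comparison were Fzd2, Lrp6, Ryk, Axin1, Apc, Ctnnb1, Gsk3b, Nkd1, Tcf7 and Tcf7l2, all at 1 FPKM or more in their highest group. Several of them had differences of less than 2-fold with an adjusted p of at most 0.05. Without the fold threshold, 17 members were higher and 11 lower in bFGF/BMP4 than in bFGF/EGF, against 25.0% and 23.6% (48.6% in all) of the genes tested. By the same rule, 20 were higher and 13 lower in BMP4 than in bFGF/EGF, against 29.6% and 25.3% (54.9% in all). For BMP4 against bFGF/BMP4 the counts were 11 and 6, against 12.2% and 8.89% (21.1% in all).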

How the data were processed

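RNA of cultured mouse neural stem cells (NSCs) was sequenced in 9 libraries, 3 from each of 3 media. Per the submitters' processing notes, the tools were fastp 0.19.7, HISAT2 2.0.5 and featureCounts 1.5.0-p3 with the mm39 genome. The annotation release and the use of strand in counting were not given in the sources used here. The authors deposited FPKM, that is fragments scaled for gene length and library size, with the libraries scaled by their own library factors. The tests here start from these FPKM values, for which limma took the place of the count model of the study. FPKM steps gave whole fragment numbers for 100.000% of the 202451 values above 0 (tolerance 0.1 fragment), and their sums on genes were 15902878 to 17438707 per library. A fragment number sets only the counting error of a value.

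Symbols and positions came from GENCODE vM39 on GRCm39, in which 54749 identifiers were found. Of 55704 genes, the 20207 whose mean over all libraries was at least 0.1 FPKM were tested. An offset of 0.1 FPKM was added before taking log2, limma's trend method was run over the 9 libraries together, and p-values were adjusted over all tested genes by the Benjamini-Hochberg method. A gene passed at an adjusted p of at most 0.05 together with a change of at least 2-fold. The tests were also run on simulated data. Changes were planted there only in genes above a minimum fragment number, so that run does not cover changes in genes below it. Where every library of a group held at most 3 fragments of a gene, the fold is a lower bound against 3 fragments per library. The alternatives were a pseudocount of 1, other filters, other scalings, limma-voom on the fragment numbers, a replicate block, no fold threshold, the 2 compared groups only, and the omission of each library.

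Every one of the 50 genes is accounted for. Those past the threshold with a highest group mean of at least 1 FPKM have all their values printed. The other tested members have group means, and those not tested have their highest group mean only. From each list of other pathway genes, the 2 genes with the largest change past the threshold between BMP4 and bFGF/BMP4 and a highest group mean of at least 1 FPKM are named. The members and lists were chosen with earlier results of these data known. Tests were run in R 4.3.3 (limma 3.58.1). Tables and plots were made in Python 3.11.15 by means of pandas 2.3.3, matplotlib 3.10.9 and numpy 2.4.6.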

Additional observations from a re-analysis of the deposited data

How the results depend on the processing

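Of the 60 calls of a member in a comparison, 43 were kept in all alternatives in which the member was tested. The other 17 were lost in at least 1, most of them with a pseudocount of 1. The filter at a mean of 1 FPKM left some members untested, among them Wnt4, whose calls count as kept. That pseudocount left 6 members lower in bFGF/BMP4 than in bFGF/EGF in place of 10, and dropping the fold threshold gave 13 members lower in BMP4 than in bFGF/EGF in place of 7. The other counts stayed within 1.5 times of those reported. Leaving out each library in turn gave 10 to 13 members higher and 9 to 10 lower in bFGF/BMP4 against bFGF/EGF, 15 to 17 and 7 to 8 in BMP4 against bFGF/EGF, and 7 to 8 and 5 to 6 in BMP4 against bFGF/BMP4. Libraries with the same replicate number had correlations of -0.084 to 0.125 of their deviations, and those with different numbers -0.154 to 0.081. These values cannot settle whether libraries with the same number share an isolation. With the replicate number as a block, 12 and 10, 17 and 7, and 8 and 5 members were higher and lower in the 3 comparisons. Differences that changed sign were all small and not past the threshold. Over the omissions of a library, bFGF/BMP4 against bFGF/EGF ran from -0.31 to 0.02 for Wnt5b, from -0.19 to 0.05 for Fzd3 and from -0.13 to 0.03 for Gsk3b, and BMP4 against bFGF/EGF from -0.02 to 0.14 for Ryk, from -0.04 to 0.14 for Ctnnb1 and from -0.29 to 0.00 for Nkd1. BMP4 against bFGF/BMP4 ran from -0.34 to 0.30 for Fzd7 and from -0.25 to 0.08 for Tcf7. The TPM scale gave -0.02 for Ryk and -0.04 for Ctnnb1 (BMP4 against bFGF/EGF) and -0.04 for Fzd7 (BMP4 against bFGF/BMP4), and limma-voom gave -0.03 for Ryk and -0.05 for Ctnnb1. The cause was not tested. At the depth of these libraries, members below about 0.1 FPKM rest on a few fragments.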

Other observations

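Of 84 other genes of the Wnt pathway, outside the 50, 66 were tested, and 13 were higher and 9 lower in bFGF/BMP4 than in bFGF/EGF, 16 and 10 in BMP4 than in bFGF/EGF, and 8 and 5 in BMP4 than in bFGF/BMP4. These are 33.3%, 39.4% and 19.7% of the genes tested, against 30.6%, 36.6% and 13.5% over all genes, so the first and the second are near the background. In the same order of comparisons, 2, 3 and 1 of 5 other ligand and secretion genes were higher and none lower. Of 19 other receptors and surface modulators, 5, 5 and 3 were higher and 3, 2 and 2 lower. Of 27 cytoplasmic and nuclear components, 3, 2 and 1 were higher and 4, 6 and 2 lower. In all these are 25.9%, 29.6% and 11.1%, somewhat below the share over all genes, a gap that amounts to few genes. Of 10 planar polarity genes, 3, 4 and 2 were higher and none lower. Of 5 other β-catenin target genes, none, 2 and 1 were higher and 2, 2 and 1 lower. Levels are means ± SD of 3 libraries. The log2 difference of the ligand gene Wnt9a between BMP4 and bFGF/BMP4 was 4.06 ± 0.34 (SE, limma with Benjamini-Hochberg adjusted p = 2.9e-05). Gpc3, a cell surface glypican, was high in bFGF/BMP4 alone, at 5.74 ± 1.8 FPKM against 0.284 ± 0.12 in bFGF/EGF and 0.486 ± 0.14 in BMP4. Ctnnbip1, which encodes an inhibitor of the binding of β-catenin to TCF, had the same order, at 12.4 ± 1.8, 50.2 ± 3.0 and 19.9 ± 1.2 FPKM. Draxin, a secreted guidance protein that binds Wnt co-receptors, was highest in BMP4 at 5.86 ± 2.0 FPKM against 1.73 ± 0.62 and 1.04 ± 0.52.

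Among planar polarity genes, Celsr1 was at 0.174 ± 0.097, 1.41 ± 0.14 and 9.67 ± 3.9 FPKM, and Celsr3 at 1.55 ± 0.27, 1.35 ± 0.31 and 3.32 ± 1.2 FPKM. Of the listed β-catenin target genes, Cd44 was at 7.13 ± 0.86, 4.19 ± 0.75 and 31.8 ± 4.2 FPKM, and Ccnd1, a cyclin of the G1 phase, at 523 ± 48, 9.13 ± 3.5 and 2.91 ± 0.37 FPKM. Cxxc4, an inhibitor that binds Dishevelled, fell in BMP4 to 0.299 ± 0.050 FPKM from 1.06 ± 0.074 in bFGF/EGF and 0.851 ± 0.41 in bFGF/BMP4. Each of these differences between BMP4 and bFGF/BMP4 passed the threshold, with adjusted p of 7.3e-04 for Celsr1, 0.014 for Celsr3, 3.9e-06 for Cd44, 7.7e-04 for Ccnd1 and 0.047 for Cxxc4.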
